A study of Homo sapiens with 24 samples.

Results

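The genes described here are 40 genes of the integrated stress response and the unfolded protein response (UPR), followed through 24 RNA-seq libraries from 2 human cancer cell lines. They were chosen by name as genes of these pathways, by a rule that uses no measured value, but with earlier results of these data known. They are 40 of the 60641 gene symbols shared by all libraries, and all 40 were found. Of these, 29 are ATF4, its partners and targets in amino acid metabolism and stress feedback, and 11 are UPR factors, chaperones and degradation factors of the endoplasmic reticulum (ER). A549 cells derive from a lung adenocarcinoma, and HCT116 cells from a colorectal carcinoma. The libraries fall into 8 groups of 3.

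A549 was represented by wild type (WT B, replicates 1B to 3B), by MSTRG.4401.1 KO (libraries S23, S24 and S25) and by MSTRG.2513.6 KO (S17, S18 and S19). The HCT116 groups were MSTRG.2513.6 KO (S8, S9 and S11), MSTRG.4401.1 KO (S10, S15 and S16), MSTRG.34636.7 KO (1A to 3A), and both sets of wild-type libraries, WT A (1A to 3A) and WT B (1B to 3B). The study describes its KOs as CRISPR/Cas9 deletions of a sequence that holds the DNA-binding domain (DBD) of a noncoding transcript. Its methods do not name these transcripts, and the sample titles say only KO. The labels give no other treatment and do not say whether a KO is 1 clone, whether the libraries of a group came from separate cultures, or which wild type belongs to which KO. P-values therefore measure only the spread between these libraries, and MSTRG.34636.7 KO was set against WT A because of the shared A in the labels. The 3 transcripts are not listed by these names among the gene symbols, so the KOs themselves were not checked.

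In the integrated stress response, kinases that sense amino acid shortage, ER stress, heme shortage or viral RNA phosphorylate the translation factor eIF2, which lowers general protein synthesis while the mRNA of the transcription factor ATF4 is translated more. ATF4 then drives genes for amino acid synthesis, amino acid uptake and tRNA charging, together with genes such as PPP1R15A that remove the phosphate from eIF2 again. ATF4 is thus regulated mainly in translation, and its mRNA level is not a measure of its activity. In the UPR, ATF6 and XBP1 are activated by unfolded protein in the ER and drive the genes of ER chaperones and of ER-associated degradation (ERAD).

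Some of the promoters hold sequence elements known from these branches. In RefSeq promoter windows of GRCh38.p14, which run from 250 bases before to 50 bases after the transcription start, 36 of the 40 genes had an entry. PSPH, NUPR1, ALDH1L2 and SHMT2 had none. On both strands, the core of the C/EBP-ATF response element, TGATGNAA, was found in 11 of these 36 genes (30.6%) and in 4.46% of all 27305 genes with a window. The 11 genes were CEBPG, CHAC1, ASNS, SLC3A2, SLC1A5, SLC1A4, SLC7A1, AARS1, GARS1, FGF21 and HERPUD1. The ER stress response element, CCAAT and CCACG with 9 bases between them, was found in XBP1, HSPA5, HSP90B1 and CALR, which are 11.1% of the 36 genes, and in 0.0916% of all genes. The UPR element TGACGTGG, which shares the bases of CCACG read on the other strand, was in none of the 36 windows and in 0.927% of all genes. A match is a match of letters and no measure of binding. Only these exact letters and this spacing were searched, so variants of the elements were not counted. The HERPUD1 window below, for example, holds ATTGG and CCACG at another spacing, left in lower case.

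The windows below are shown because HSPA5, HSP90B1 and CALR were lower in A549 MSTRG.4401.1 KO, HERPUD1 was lower in both MSTRG.4401.1 KOs, and CHAC1 and ASNS were higher in A549 MSTRG.4401.1 KO. They were thus picked by these results, and the elements do not sort the genes by direction. Among other genes with the C/EBP-ATF core, SLC3A2, SLC1A5 and CEBPG were lower in A549 MSTRG.4401.1 KO and SLC1A4 was higher. SLC7A1, AARS1 and GARS1, and XBP1 with its ER element, had no difference there that passed the test used below. Each is written 5′ to 3′ on the strand of the gene, with the matched letters in capitals. Those of HSPA5, CALR and HERPUD1 lie upstream of every annotated exon of the gene (GENCODE release 44). Those of HSP90B1, CHAC1 and ASNS lie upstream of the RefSeq start but in the first exon of an isoform with an earlier start, so only 30 bases around the match are given.
HSPA5, chr9:125241383-125241593, minus strand: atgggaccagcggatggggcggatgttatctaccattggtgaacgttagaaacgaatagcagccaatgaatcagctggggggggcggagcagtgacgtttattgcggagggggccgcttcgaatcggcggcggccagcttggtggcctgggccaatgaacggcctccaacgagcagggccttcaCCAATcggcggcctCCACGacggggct
HSP90B1, chr12:103930211-103930240, plus strand: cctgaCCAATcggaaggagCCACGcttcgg
CALR, chr19:12938359-12938577, plus strand: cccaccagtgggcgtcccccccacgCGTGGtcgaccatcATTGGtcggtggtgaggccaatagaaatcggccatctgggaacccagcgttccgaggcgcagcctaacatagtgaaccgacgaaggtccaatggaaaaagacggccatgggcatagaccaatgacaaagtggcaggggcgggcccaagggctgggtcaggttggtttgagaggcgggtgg
HERPUD1, chr16:56931892-56932141, plus strand: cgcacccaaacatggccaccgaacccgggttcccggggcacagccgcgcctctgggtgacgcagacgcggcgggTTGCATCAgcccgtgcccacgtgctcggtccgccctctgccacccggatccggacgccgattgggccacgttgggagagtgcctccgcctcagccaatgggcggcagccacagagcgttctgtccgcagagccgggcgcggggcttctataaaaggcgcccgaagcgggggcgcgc
CHAC1, chr15:40953251-40953280, plus strand: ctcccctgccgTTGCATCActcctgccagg
ASNS, chr7:97872458-97872487, minus strand: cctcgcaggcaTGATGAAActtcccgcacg

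The total count per library over the shared symbols ranged from 25799359 to 102261808, and the levels below are CPM, counts scaled to a common total in each library. The 40 genes together took 4929 to 12915 CPM. A549 markers summed to 7519 CPM or more in the 9 A549 libraries and to 93.4 CPM or less in HCT116 outside S8 and S9. This sum rested on KRT7, AKR1B10, AKR1C1, ALDH1A1 and ALDH3A1. The lung genes NKX2-1 and SFTPC were at or near 0 in A549, and NKX2-1 was higher in HCT116 WT B (1.20 to 1.32 CPM) than in A549 WT B (0.265 CPM at most). The lung genes SFTPB and NAPSA were at 3.06 CPM or less in all wild types. The 7 HCT116 markers summed to 133 CPM or more in HCT116 outside S8 and S9 and to 26.3 CPM or less in A549. The sum rested on the epithelial adhesion molecule EPCAM and the intestinal factor CDX2, which were higher in HCT116 WT B, while CDX1 was at 0 in the wild types, and CDH17, VIL1 and LGALS4 had higher medians in A549 WT B than in HCT116 WT B (6.24 against 0.514 CPM in CDH17). The libraries S8 and S9, labelled HCT116 MSTRG.2513.6 KO, held 10852 and 10909 CPM of the A549 markers, against 26.4 CPM in S11 of the same group. Over all symbols their log2(CPM + 1) values had r of at least 0.971 with every A549 library and at most 0.927 with every HCT116 library outside their group. They are called by their labels below. The comparison of their group, and the fits of all HCT116 libraries that hold them, are also given without them. A549 MSTRG.4401.1 KO had the shallowest libraries (25799359 to 33205007 counts) and the highest mitochondrial share of counts, 3.50% to 7.87%, against 1.96% to 2.37% in A549 WT B.

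A gene was called at an adjusted p (edgeR's quasi-likelihood test, Benjamini-Hochberg, FDR) below 0.1 and a fold change above 2, and upregulated or downregulated is written of genes with FDR below 0.1 whatever the fold change. Fold changes are log2(fold change) ± SE of libraries normalized by TMM, a scaling between libraries, so they can differ from ratios of CPM. FGF21, which encodes a secreted metabolic hormone, was at 0 counts in all 9 A549 libraries, where 3 counts correspond to 0.0470 to 0.116 CPM. In HCT116 it had 28, 13 and 7 counts in WT A and at most 30 elsewhere, and it was tested only between WT A and MSTRG.34636.7 KO. The other 39 genes were tested in all comparisons, except that NUPR1 passed the filter on low counts in neither comparison of an HCT116 KO with WT B.

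**Figure D1:**
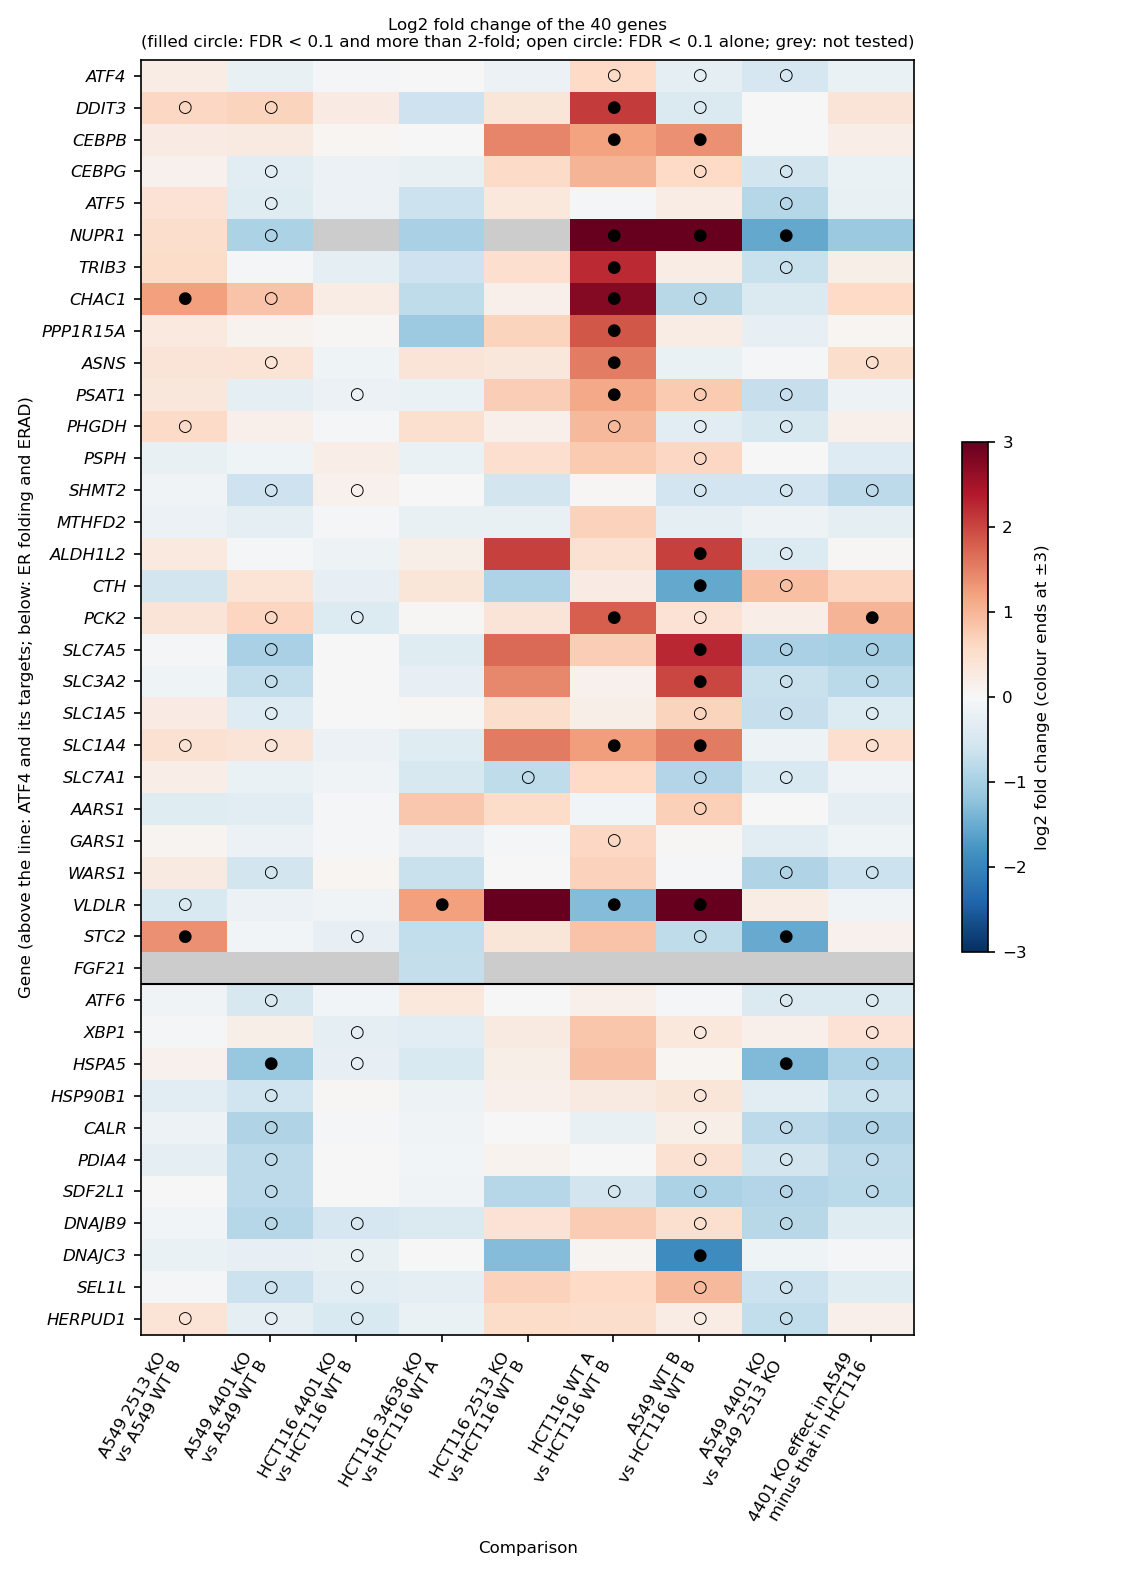
Log2(fold change) of the 40 genes (rows, by role) in 9 comparisons (columns). Filled circles mark the 28 called values, open circles values with FDR below 0.1 alone, and grey cells values that were not tested. Circles are dense in the columns of A549 MSTRG.4401.1 KO, of the wild-type lines and of the A549 KOs against each other, and the filled circles of WT A against WT B are among ATF4 targets, transcription factors and VLDLR, with none in an ER gene.

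The wild-type lines, A549 WT B and HCT116 WT B, differed in which of these genes they used. The amino acid transporter subunits SLC7A5 and SLC3A2, which together form the leucine exchanger LAT1, and VLDLR, ALDH1L2, SLC1A4, NUPR1 and CEBPB were called higher in A549. CTH and DNAJC3 were called lower in A549. With 9 of 39 tested genes called (23.1%), the genes stood below the 35.7% of all 27882 genes tested. At FDR below 0.1 alone, 20 of 39 were higher in A549 (51.3%, against 31.2% of all genes) and 10 were lower (25.6%, against 31.7%).

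Per kilobase of annotated exon, SLC7A5 had the highest level of the 40 genes in A549 WT B, with 730.4 CPM per kb (median), and CALR, a calcium-binding ER chaperone, the highest in HCT116 WT B, with 226. CALR came after SLC7A5 in A549, with 211 CPM per kb, and SLC7A5 after CALR in HCT116, with 177. ATF4 stood at 69.4 CPM per kb in A549 and 101 in HCT116. At the low end, CHAC1 was at 0.774 CPM per kb in A549 and NUPR1 at 0.0198 in HCT116. In the order of these levels, 24 of the 39 pairs of neighbours in A549 and 22 of 39 in HCT116 had overlapping libraries. The levels of these neighbours are therefore not separated by these data. The exon length merges the exons of all annotated isoforms of a gene (13092 bases in HSP90B1), so the order of the genes also depends on the annotation.

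SLC7A5 was at 3479.6, 3522 and 3323 CPM in A549 WT B and at 905, 844 and 823 CPM in HCT116 WT B, a log2(fold change) of 2.27 ± 0.09 (adjusted p = 8.39e-07). SLC3A2, its heavy chain, was at 637, 631 and 751 CPM in A549 and at 225, 185 and 189 CPM in HCT116 (2.01 ± 0.09, adjusted p = 1.66e-06). For both subunits, the lowest A549 library was above the highest HCT116 library. The neutral amino acid transporter SLC1A4 was at 31.0, 32.3 and 33.9 CPM in A549 and at 14.6, 12.1 and 12.9 CPM in HCT116 (1.56 ± 0.09, adjusted p = 5.39e-06). Of the other transporters, SLC1A5 was upregulated in A549 by 0.67 and SLC7A1, the cationic amino acid transporter, downregulated by 0.87 on the log2 scale. The 5 transporters thus had no common direction.

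VLDLR, a lipoprotein receptor, had the largest fold change of the 39 genes after NUPR1, with 53.8, 62.1 and 67.7 CPM in A549 and 3.09, 2.60 and 2.28 CPM in HCT116 (log2(fold change) 4.78 ± 0.13, adjusted p = 1.72e-07). NUPR1, a small stress-induced chromatin protein, was at 8.22, 8.27 and 6.71 CPM in A549, and at 0, 7 and 11 counts (0, 0.109 and 0.183 CPM) in HCT116. Its log2(fold change) of 6.50 ± 0.59 (adjusted p = 6.41e-05) therefore rests on 18 counts in HCT116 WT B.

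ALDH1L2, a mitochondrial enzyme of folate metabolism, was at 19.1, 23.6 and 26.3 CPM in A549 and at 6.08, 6.70 and 6.92 CPM in HCT116 (2.06 ± 0.12, adjusted p = 5.56e-06). CTH, which makes cysteine from cystathionine, was at 2.11, 2.93 and 3.25 CPM in A549 and at 8.72, 10.3 and 9.33 CPM in HCT116 (log2(fold change) -1.53 ± 0.17, adjusted p = 0.000193). These enzymes of amino acid and one-carbon metabolism lay in opposite directions, each without overlap. The bZIP factor CEBPB was at 91.7, 100.2 and 72.7 CPM in A549 and at 34.0, 44.1 and 44.5 CPM in HCT116 (1.38 ± 0.17, adjusted p = 0.000313).

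Among the ER genes, DNAJC3, an ER co-chaperone and inhibitor of the eIF2 kinase PERK, was called. It was at 8.75, 19.2 and 27.4 CPM in A549 and at 83.6, 81.4 and 75.7 CPM in HCT116 (-1.89 ± 0.32, adjusted p = 0.00169). Its A549 libraries varied among themselves but all lay below HCT116. Another 8 of the 11 ER genes passed FDR alone. SEL1L, a subunit of the ERAD ubiquitin ligase, was higher in A549 by 0.96 ± 0.05, while SDF2L1, a co-factor of HSPA5, was lower (-0.95 ± 0.18). XBP1, HSP90B1, CALR, PDIA4, DNAJB9 and HERPUD1 were higher in A549 by 0.18 to 0.48 on the log2 scale. The direction of XBP1, DNAJB9 and HERPUD1 turned with HCT116 WT A as the control, as given below. Of the 6, CALR and HERPUD1 had the lower mean CPM in A549 (592 against 627, and 46.7 against 47.8), so their direction depends on the TMM scaling. HSPA5 (BiP), the main ER chaperone, had a log2(fold change) of 0.07 ± 0.05 (adjusted p = 0.298). By CPM, HSPA5 was lower in A549 without overlap, at 532 to 575 against 618 to 642 CPM, so this result depends on the TMM scaling too.

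The control decided part of this comparison. Against HCT116 WT A, an alternative chosen after seeing the data, 17 of the 39 genes were called (43.6%, against 38.7% of all genes in that fit), 5 higher and 12 lower in A549. At FDR below 0.1 alone, 6 were higher (against 26.6% of all genes) and 15 lower (against 28.6%), where WT B had given 20 and 10. Of the 30 genes that passed against WT B, 7 changed direction. These were PCK2, from 0.44 to -1.41 on the log2 scale and then called lower in A549, and XBP1 (-0.58), CEBPG (-0.47), PSAT1 (-0.42), HERPUD1 (-0.36), DNAJB9 (-0.34) and PSPH (-0.23), which did not pass against WT A. CEBPB (log2(fold change) 0.10) and SLC1A4 (0.25) were then no longer called, the other 7 were, and DDIT3, TRIB3, CHAC1, PPP1R15A, ASNS, PHGDH, MTHFD2, PCK2, SLC7A1 and STC2 were called lower in A549.

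**Figure D2:**
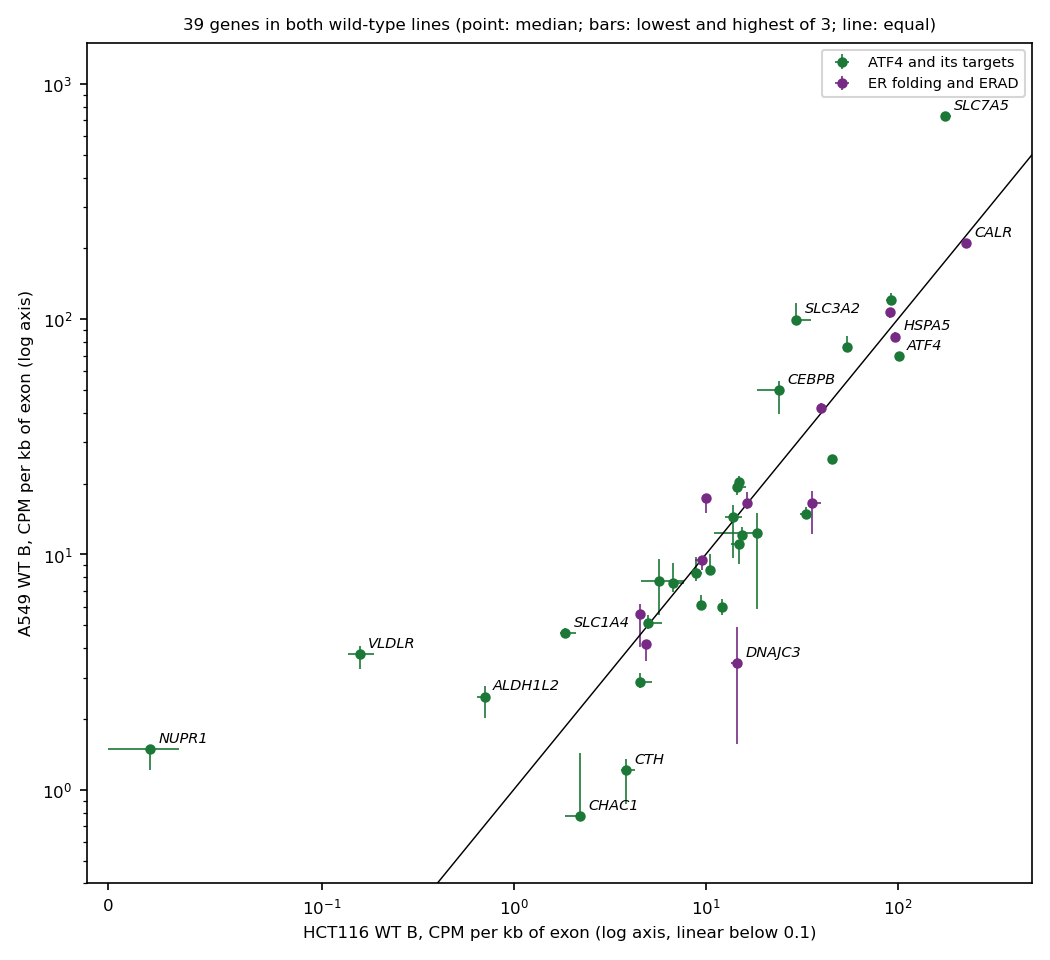
CPM per kilobase of exon of 39 genes in HCT116 WT B (x axis) and A549 WT B (y axis), on log axes, with the x axis linear below 0.1. Points are medians and bars span the lowest and highest of 3 libraries. The called genes and ATF4, CALR, HSPA5 and CHAC1 are named. SLC7A5 at 730.4 against 177 CPM per kb and VLDLR at 3.76 against 0.158 stand far above the line of equal levels, and CTH and DNAJC3 below it.

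In A549 MSTRG.4401.1 KO against A549 WT B, most ER genes were lower. In bulk libraries like these, a change in some of the cells and a smaller change in all of them cannot be told apart. Of the 11 ER genes, 9 were downregulated and none was upregulated, and HSPA5 was the gene called. The 28 tested ATF4 genes were divided, with 5 upregulated and 8 downregulated. In all, 17 of 39 genes were downregulated (43.6%, against 22.4% of 24979 genes tested) and 5 upregulated (12.8%, against 21.3%), while 1 was called (2.56%, against 15.4%). The median log2(fold change) was -0.27 over the 39 genes, -0.65 over the ER genes and 0.12 over all genes tested.

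HSPA5 (GRCh38, chromosome 9, 125234853 to 125241382, minus strand) was at 297, 222 and 275 CPM in the KO and at 532, 551 and 575 CPM in wild type. The highest KO library was below the lowest wild-type library, with a log2(fold change) of -1.14 ± 0.13 (adjusted p = 0.000791). CALR was at 389, 268 and 353 CPM in the KO and at 596, 592 and 589 CPM in wild type (-0.90 ± 0.15, adjusted p = 0.00378). PDIA4, a protein disulfide isomerase, was at 239, 179 and 226 CPM against 333, 354 and 355 CPM (-0.77 ± 0.13, adjusted p = 0.00375). These 3 abundant folding factors had no overlap between groups. HSP90B1, the ER member of the HSP90 family, was at 482, 336 and 347 CPM against 547, 575 and 548 CPM (-0.60 ± 0.15, adjusted p = 0.0151). Less abundant ER genes were downregulated too, namely SDF2L1 (-0.79), DNAJB9, an HSPA5 co-chaperone (-0.84), SEL1L (-0.65), ATF6 (-0.49) and HERPUD1, an ERAD scaffold (-0.27). XBP1, at 67.3, 49.8 and 64.8 CPM against 47.3, 50.2 and 55.7 CPM, and DNAJC3, at 11.3, 24.9 and 12.4 CPM against 8.75, 19.2 and 27.4 CPM, had overlapping groups and did not pass (adjusted p of XBP1 = 0.330).

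Among the ATF4 genes, the LAT1 subunits were downregulated. SLC7A5 was at 1875, 1698 and 1969.9 CPM in the KO, against 3323 CPM or more in wild type (-0.98 ± 0.15, adjusted p = 0.00247). SLC3A2 was at 477, 341 and 448 CPM against 631 CPM or more (-0.75 ± 0.15, adjusted p = 0.00675). Also downregulated were NUPR1 (-0.94), SHMT2, the mitochondrial serine hydroxymethyltransferase (-0.62), the tryptophanyl-tRNA synthetase WARS1 (-0.56), the glutamine transporter SLC1A5 (-0.38) and the bZIP factors ATF5 (-0.37) and CEBPG (-0.35). In the other direction, PCK2, the mitochondrial PEPCK (chromosome 14, 24094053 to 24110598, plus strand), was at 49.8, 57.2 and 56.7 CPM in the KO and at 31.7, 38.5 and 29.1 CPM in wild type (0.64 ± 0.15, adjusted p = 0.0124). ASNS, asparagine synthetase, was at 85.1, 69.0 and 67.0 CPM against 54.2, 56.4 and 44.7 CPM (0.42 ± 0.14, adjusted p = 0.0513). Neither gene had overlapping groups. Among the downregulated genes, CEBPG, DNAJB9 and HERPUD1 had overlapping groups.

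DDIT3 (CHOP), a stress-induced factor that promotes cell death, was at 4.85, 7.83 and 6.52 CPM against 3.75, 4.09 and 3.54 CPM (0.67 ± 0.23, adjusted p = 0.0532). CHAC1, which degrades glutathione, was at 3.49, 5.19 and 3.01 CPM against 1.53, 2.93 and 1.59 CPM (0.86 ± 0.33, adjusted p = 0.0753). SLC1A4 was upregulated by 0.38. Thus all 5 upregulated genes were ATF4 genes. ATF4 itself was at 182, 149 and 161 CPM against 181, 184 and 175 CPM (-0.22 ± 0.11, adjusted p = 0.158), and the pseudokinase TRIB3 was at 46.9, 43.8 and 45.2 CPM against 53.3, 47.7 and 32 CPM (-0.06). By CPM, 14 of the 39 genes had all KO libraries below all wild-type libraries (35.9%, against 20% of all genes), and 6 had them all above (15.4%, against 28.0%).

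These counts moved with the scaling and with the library. Under upper-quartile normalization, the median of all genes shifted from 0.12 to 0.28 and that of the 39 genes from -0.27 to -0.10, HSPA5 was at -0.98 and was not called, CHAC1 was called higher, and 13 genes were downregulated (against 15.6% of all genes) and 7 upregulated (against 29.1%). Without S23, 5 genes were called (12.8%, against 15.7%), and 4 without the wild-type replicate 3B (10.3%, against 15.1%). The number downregulated ranged from 11 (without replicate 2B, against 15% of all genes) to 19 (without S23, against 22.4%). The 17 included SHMT2, SLC7A5, SLC3A2, WARS1, NUPR1, ATF6, HSPA5, HSP90B1, CALR, PDIA4 and SEL1L, which passed in all 11 other fits, and CEBPG, ATF5 and HERPUD1, which passed in 3 or 4. Of the upregulated genes, PCK2 passed in all 11, ASNS in 7, CHAC1 in 6, DDIT3 in 5 and SLC1A4 in 4. The 40 genes together took 5026 to 6270 CPM in the KO and 8498 to 8855 CPM in wild type, beside the higher mitochondrial share given above. The part of the mitochondrial share and of depth in these results was not tested.

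**Figure D3:**
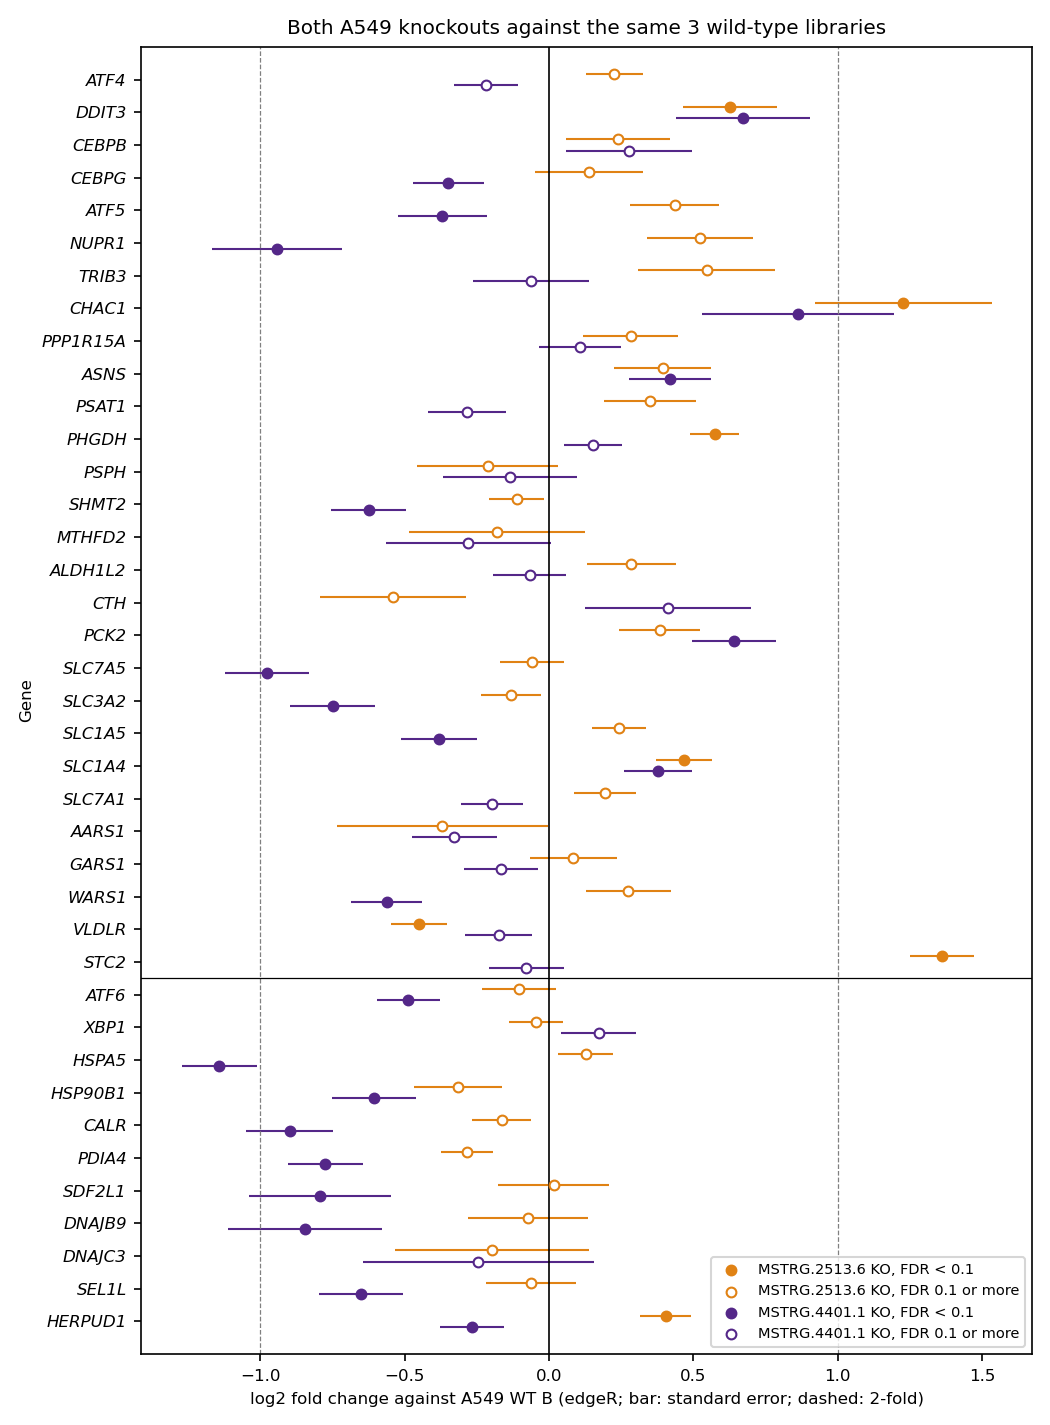
Log2(fold change) of 39 genes in A549 MSTRG.2513.6 KO (orange) and MSTRG.4401.1 KO (purple), both against the same 3 wild-type libraries. Bars are standard errors, filled points have FDR below 0.1, dashed lines mark 2-fold and the horizontal line separates ATF4 genes (above) from ER genes (below). HSPA5 at -1.14 in MSTRG.4401.1 KO and STC2 at 1.36 in MSTRG.2513.6 KO lie past the dashed lines.

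Other genes of the pathway were counted in the same way in A549 MSTRG.4401.1 KO. Of 20 tested further ER genes, 16 were downregulated (80.0%, against 22.4% of all genes) and none upregulated, with SEC61B, a subunit of the ER translocon, called. Of 25 further ATF4 targets, 13 were downregulated (52.0%) and 5 upregulated (20%, against 21.3% of all genes), with ATF3, a stress-induced bZIP factor, called higher. Among 14 upstream genes (eIF2 kinases and phosphatase subunits, eIF2B and UPR sensors and proteases), 11 were downregulated (78.6%). ERN1, the sensor IRE1, was upregulated.

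In A549 MSTRG.2513.6 KO, which shares its wild-type libraries with the comparison above, 2 of 39 genes were called (5.13%, against 2.92% of 25666 genes tested), CHAC1 and STC2, both higher. In all, 6 genes were upregulated (15.4%, against 2.77%) and 1 was downregulated (2.56%, against 3.19%). The median log2(fold change) was 0.14 over the 39 genes and -0.03 over all genes tested, and at an unadjusted p below 0.05 there were 14 genes (35.9%, against 16.8%).

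STC2, stanniocalcin 2, a secreted glycoprotein induced in ER stress (chromosome 5, 173314723 to 173328447, minus strand), was at 78.3, 75.5 and 81.0 CPM in the KO and at 30.2, 32.7 and 28.1 CPM in wild type. All KO libraries were above all wild-type libraries, by 2.58-fold in the means (log2(fold change) 1.36 ± 0.11, adjusted p = 0.000894), and the call was kept in all 13 alternatives. CHAC1 was at 3.93, 5.89 and 4.39 CPM against 1.53, 2.93 and 1.59 CPM, again without overlap but at a low level (1.23 ± 0.31, adjusted p = 0.0797). It was not called without S18 (adjusted p = 0.262), without the wild-type replicate 1B (0.217) or without replicate 3B (0.223).

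The other upregulated genes were DDIT3, at 5.76, 5.87 and 6.03 CPM against 3.75, 4.09 and 3.54 CPM (0.63 ± 0.16, adjusted p = 0.0902), and PHGDH, the first enzyme of serine synthesis, at 83.2, 84.4 and 88.8 CPM against 54.5, 55.8 and 61.9 CPM (0.57 ± 0.09, adjusted p = 0.0124). SLC1A4 was at 44.9, 45.6 and 43.8 CPM against 31.0, 32.3 and 33.9 CPM (0.47 ± 0.10, adjusted p = 0.0428). HERPUD1 was upregulated by 0.40 ± 0.09 (adjusted p = 0.0515) and was the ER gene that passed. VLDLR was downregulated, at 44.7, 45.1 and 44.2 CPM against 53.8, 62.1 and 67.7 CPM (-0.45 ± 0.10, adjusted p = 0.0495). Each of these genes, VLDLR included, had KO and wild-type libraries apart. In 11 other fits, STC2 and PHGDH kept FDR below 0.1 in all, CHAC1, SLC1A4, HERPUD1 and VLDLR in 7, and DDIT3 in 3. HSPA5, at 619.8, 616 and 573 CPM against 532, 551 and 575 CPM, ATF4 (0.23 ± 0.10, adjusted p = 0.296) and ASNS, at 75.7, 71.2 and 57.5 CPM against 54.2, 56.4 and 44.7 CPM, did not pass, although ATF4 and ASNS had groups that did not overlap. Of the further ATF4 targets, ATF3 and GDF15 were called higher, and no upstream or further ER gene passed. AARS1, the alanyl-tRNA synthetase, was at 67.9 CPM in S17 and at 219 and 210.3 CPM in the other KO libraries.

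The KOs were also set against each other, in a fit without wild-type libraries. In MSTRG.4401.1 KO relative to MSTRG.2513.6 KO, 3 of 39 genes were called (7.69%, against 16.6% of 25161 genes tested), all lower. These were NUPR1, at 5.54, 3.60 and 3.70 CPM against 12.8, 9.92 and 10.8 CPM (-1.53 ± 0.23, adjusted p = 0.00257), STC2, at 29.1, 34.2 and 28.1 CPM (-1.51 ± 0.13, adjusted p = 0.000137), and HSPA5 (-1.33 ± 0.16, adjusted p = 0.000774). All 3 calls were kept in 13 of 13 alternatives. Another 20 genes were lower at FDR below 0.1, which makes 23 of 39 (59.0%, against 19.8%), and CTH was higher (2.56% of the genes, against 17.4%), at 4.91, 2.48 and 4.15 CPM against 1.58, 1.59 and 2.52 CPM. The 23 genes included ATF4 (-0.51 ± 0.13, adjusted p = 0.0224), 8 of 11 ER genes and SLC7A5 (-0.98). CHAC1 (-0.43 ± 0.26, adjusted p = 0.255) did not pass, and neither did the other genes upregulated in both KOs, DDIT3 and SLC1A4. A p above the threshold does not show that the KOs act alike on these genes. Without S19 or without S23, 5 genes were called (12.8%, against 20% and 16.4% of all genes).

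**Figure D4:**
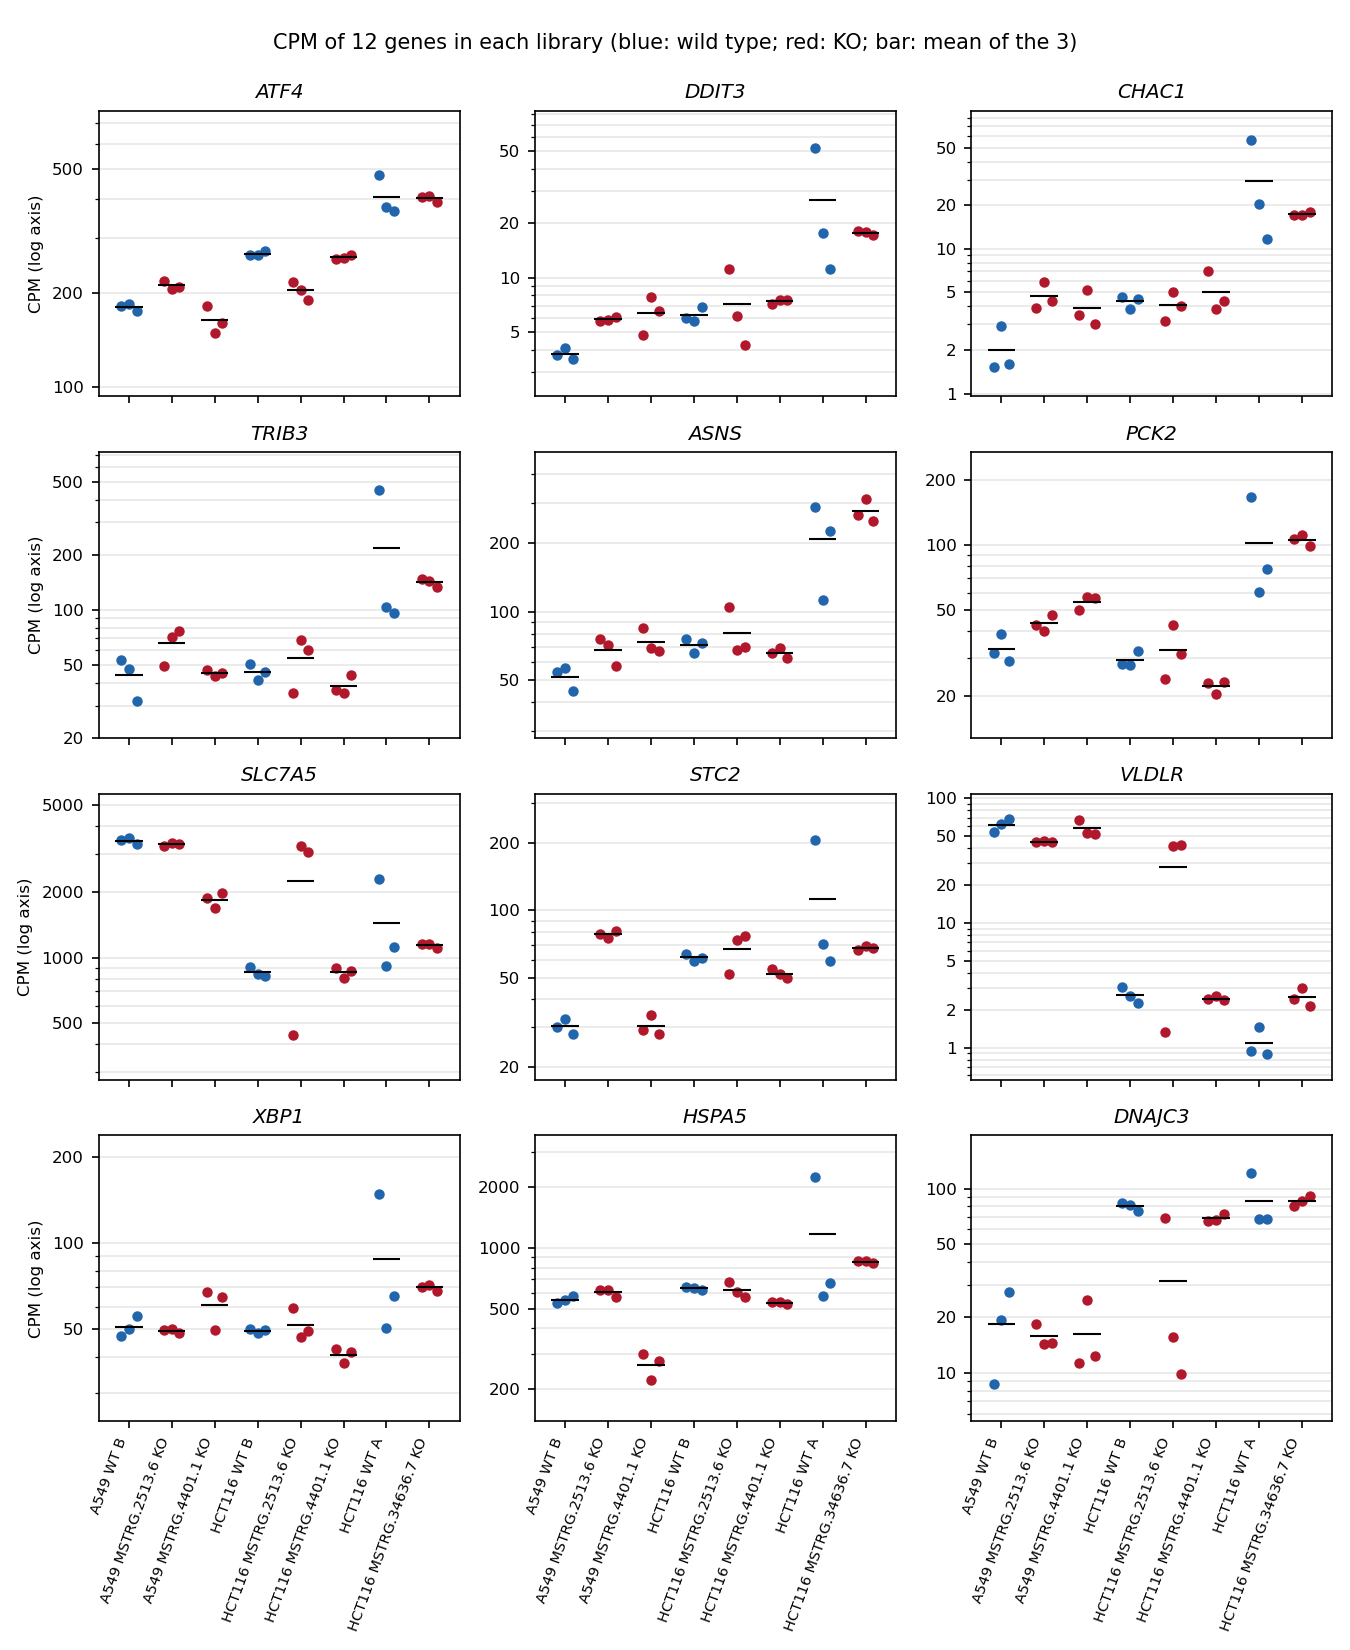
CPM of 12 genes in each of the 24 libraries, on a log axis, in 8 groups. Points are libraries (blue for wild type, red for KO, in the order of the labels) and bars are means of 3. In HSPA5 the 3 A549 MSTRG.4401.1 KO libraries are the lowest of all, at 222 to 297 CPM. In most panels the first library of HCT116 WT A stands above the other 2, and in SLC7A5, VLDLR and DNAJC3 the libraries of HCT116 MSTRG.2513.6 KO are split between the levels of both cell lines.

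In HCT116 MSTRG.4401.1 KO against HCT116 WT B, several ER genes were lower, by less than 2-fold. With 38 genes tested, none was called by edgeR or by DESeq2 (against 2.62% of 26615 genes tested by edgeR), and 12 had an unadjusted p below 0.05 (31.6%, against 25.7%). At FDR below 0.1, 9 genes were downregulated (23.7%, against 8.72%) and 1 was upregulated (2.63%, against 7.57%). Of the 11 ER genes 6 were downregulated. All 3 KO libraries were below all 3 wild-type libraries for 12 genes (31.6%, against 15.2%) and above them for 3 genes (7.89%, against 16.2%).

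HSPA5 was at 540.3, 543 and 526 CPM in the KO and at 642, 632 and 618 CPM in wild type (-0.25 ± 0.04, adjusted p = 0.0104). XBP1 was at 42.5, 38.2 and 41.7 CPM against 49.9, 48.4 and 49.5 CPM (-0.29 ± 0.06, adjusted p = 0.0196). SEL1L (-0.32 ± 0.04), HERPUD1 (-0.45 ± 0.06), DNAJB9 (-0.51 ± 0.10) and DNAJC3 (-0.23 ± 0.05) were the other ER genes downregulated. The wild-type and KO libraries lay close within their groups, so that differences of 1.16- to 1.41-fold in mean CPM passed. Of the ATF4 genes, PCK2 was downregulated, at 23, 20.5 and 23.2 CPM against 28.2, 27.7 and 32.2 CPM (-0.42 ± 0.08, adjusted p = 0.0206), with STC2 (-0.25) and PSAT1, a serine synthesis enzyme (-0.17). SHMT2 was upregulated by 0.13. ATF4, at 258, 259 and 264 CPM against 264, 264 and 272 CPM, had an adjusted p of 0.439.

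These 10 genes kept their direction in all 13 alternatives, but their errors depended on the libraries in the fit. When all libraries of HCT116 were fitted together, S8 and S9 included, none of 40 tested genes passed FDR below 0.1 (0.0833% of all genes were lower) or had an unadjusted p below 0.05 (against 5.81%). Without S8 and S9 in that fit, an alternative chosen after seeing the data, again none did (1.74% lower, and 13% at the unadjusted p). HSPA5 stayed at -0.25 in both, with a standard error of 0.37 and 0.38, and HERPUD1 at -0.45 with 0.22 (adjusted p = 0.900 with S8 and S9, 0.414 without). Against WT A instead, 14 of 39 genes were called (35.9%, against 10.2% of all genes in that fit), 13 of them lower in the KO, DDIT3, TRIB3, CHAC1 and ASNS among them, and VLDLR higher. The further lists were mixed against WT B. Of 21 further ER genes, 7 were downregulated (33.3%, against 8.72% of all genes) and 3 upregulated (14.3%, against 7.57%). DDIT4 and GDF15 were called among the further ATF4 targets, both lower.

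Whether MSTRG.4401.1 KO acted differently in the cell lines was tested as an interaction. The log2(fold change) in A549 minus that in HCT116 was called for 1 of 39 genes (2.56%, against 11.4% of 30134 genes tested), PCK2, which was upregulated in A549 and downregulated in HCT116 (difference 1.02 ± 0.17, adjusted p = 0.00192). At FDR below 0.1, 4 genes had a higher value in A549 (ASNS, PCK2, SLC1A4 and XBP1; 10.3%, against 11.6%) and 11 had a lower value (28.2%, against 15.4%). The 11 were SHMT2, SLC7A5, SLC3A2, SLC1A5, WARS1, ATF6, HSPA5, HSP90B1, CALR, PDIA4 and SDF2L1. With WT B as control, HSPA5 was downregulated in both cell lines, by more in A549 (difference -0.93 ± 0.15, adjusted p = 0.00144), and CALR differed by -0.90 ± 0.18. The interaction was not fitted with WT A as the HCT116 control. In the HCT116 comparison alone, HSPA5 ran from -1.14 to -0.22 over 13 alternatives, WT A among them, against -1.14 in A549. The larger response of HSPA5 in A549 is therefore shown for WT B only. HERPUD1, SEL1L and DNAJB9, the other ER genes downregulated in both lines, did not pass (HERPUD1 0.15 ± 0.14, adjusted p = 0.491). Without S23 or without the A549 wild-type replicate 3B, 4 genes were called (10.3%, against 12.6% and 11.9% of all genes). None was called without the HCT116 wild-type replicate 3B (against 9.16%), where PCK2 was at 0.95 and 14 genes had an unadjusted p below 0.05 (35.9%, against 28.5%). The mitochondrial share was raised in A549 MSTRG.4401.1 KO and not in the HCT116 KO, 1.90% to 2.19%, and its part in this difference was not tested.

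The HCT116 wild types WT A and WT B differed in the ATF4 genes. Of 39 genes, 10 were called higher in WT A (25.6%, against 3.16% of 27280 genes tested) and 1 lower (2.56%, against 3.9%), which makes 11 called (28.2%, against 7.06%). All 10 were ATF4 genes, and none of the 11 ER genes was called. The median log2(fold change) was 0.70 over the 39 genes and 0.03 over all genes tested. The titles of WT A and WT B differ in the letter and in their form, since those of WT B carry an S number like those of the A549 libraries and those of WT A carry none. The count tables of WT A and of MSTRG.34636.7 KO list 60644 symbols, and all others 60641. The labels name no batch, so the wild-type set and any difference in handling cannot be told apart.

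CHAC1 was at 56.2, 20.5 and 11.8 CPM in WT A replicates 1A, 2A and 3A, and at 4.65, 3.82 and 4.52 CPM in WT B (2.75 ± 0.52, adjusted p = 0.0147). TRIB3 was at 453, 104 and 95.8 CPM against 50.7, 41.4 and 45.6 CPM (2.24 ± 0.57, adjusted p = 0.0522). DDIT3 was at 52.2, 17.7 and 11.2 CPM against 5.97, 5.77 and 6.85 CPM (2.11 ± 0.51, adjusted p = 0.0429). In each of these stress-feedback genes, all WT A libraries were above all WT B libraries and 1A was the highest. PPP1R15A (GADD34), the eIF2 phosphatase subunit, was at 114, 45.0 and 40.9 CPM against 17.1, 17 and 20.2 CPM (1.87 ± 0.38, adjusted p = 0.0195). CEBPB was at 135, 90.8 and 62.8 CPM against 34.0, 44.1 and 44.5 CPM (1.21 ± 0.26), and NUPR1 at 1.03, 0.591 and 0.831 CPM against 0, 0.109 and 0.183 CPM (3.01 ± 0.77).

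Of the 9 enzymes of amino acid and one-carbon synthesis, 3 were called higher in WT A, namely ASNS, PCK2 and PSAT1, and PHGDH passed FDR alone (0.98). The other 5 did not pass, and SHMT2, MTHFD2 and PSPH had overlapping groups. ASNS was at 286, 113 and 224 CPM in WT A and at 76.1, 66.2 and 72.9 CPM in WT B (1.53 ± 0.31, adjusted p = 0.0204). PCK2 was at 167, 60.7 and 77.3 CPM against 28.2, 27.7 and 32.2 CPM (1.78 ± 0.35, adjusted p = 0.0178), and PSAT1 at 421, 177 and 206 CPM against 119, 121 and 120.1 CPM (1.15 ± 0.31, adjusted p = 0.0616). For the 3 called enzymes no WT A library overlapped WT B. SLC1A4 was at 50.5, 22 and 22.3 CPM against 14.6, 12.1 and 12.9 CPM (1.25 ± 0.32, adjusted p = 0.0540). VLDLR was the gene called lower, at 0.940, 1.47 and 0.890 CPM against 3.09, 2.60 and 2.28 CPM (-1.30 ± 0.27, adjusted p = 0.0219). ATF4, at 479, 376 and 365 CPM against 264, 264 and 272 CPM, was upregulated without reaching 2-fold (0.60 ± 0.14, adjusted p = 0.0420).

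Replicate 1A of WT A stood apart in these genes. The 40 genes summed to 12915 CPM in 1A, 6206 CPM in 2A and 6725 CPM in 3A, and to 5706 to 5876 CPM in WT B. Of the 39 genes with enough counts, 20 were more than 2-fold higher in 1A than in the mean of 2A and 3A, against 3.11% of 24497 genes. By the same measure, no gene of the 39 stood out in 2A (7.79% of all genes) or in 3A (1.4%). TRIB3 was 4.53-fold, DDIT3 3.62-fold and CHAC1 3.49-fold higher in 1A. Here 5 ER genes were among the 20, with HSPA5 at 2254 CPM in 1A and at 579.6 and 674 CPM in 2A and 3A, and XBP1 at 149, 50.5 and 65.3 CPM. CALR was not among them, at 475, 575 and 568 CPM.

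Without 1A, 7 genes were called (17.9%, against 6.45% of all genes) and the median over the 39 genes was 0.22. The fold changes of the genes still called higher in WT A were smaller, on the log2 scale 1.19 in DDIT3, 1.11 in TRIB3, 1.86 in CHAC1, 1.23 in PPP1R15A, 1.24 in ASNS and 1.22 in PCK2, and VLDLR was called lower (-1.21). CEBPB (0.88), PSAT1 (0.66) and SLC1A4 (0.73) kept FDR below 0.1 without reaching 2-fold, and NUPR1 was at 2.81 with an adjusted p of 0.131 (edgeR). Without 2A, 16 genes were called (41.0%, against 7.7%), the ER gene XBP1 among them, higher in WT A. Without a WT B replicate, 5 were called for 1B (12.5%, against 5.43%), 6 for 2B (15%, against 5.47%) and 7 for 3B (17.5%, against 5.47%). The difference between the wild types in CHAC1, PPP1R15A, ASNS and PCK2 was called in all 12 alternatives. Of the further ATF4 targets, ATF3, SLC7A11 and KLHL24 were called higher in WT A, and of the further ER genes, HYOU1 was called higher and EDEM1 lower. AARS1 was at 67.4 CPM in 2A and at 179.9 and 190.0 CPM in 1A and 3A.

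**Figure D5:**
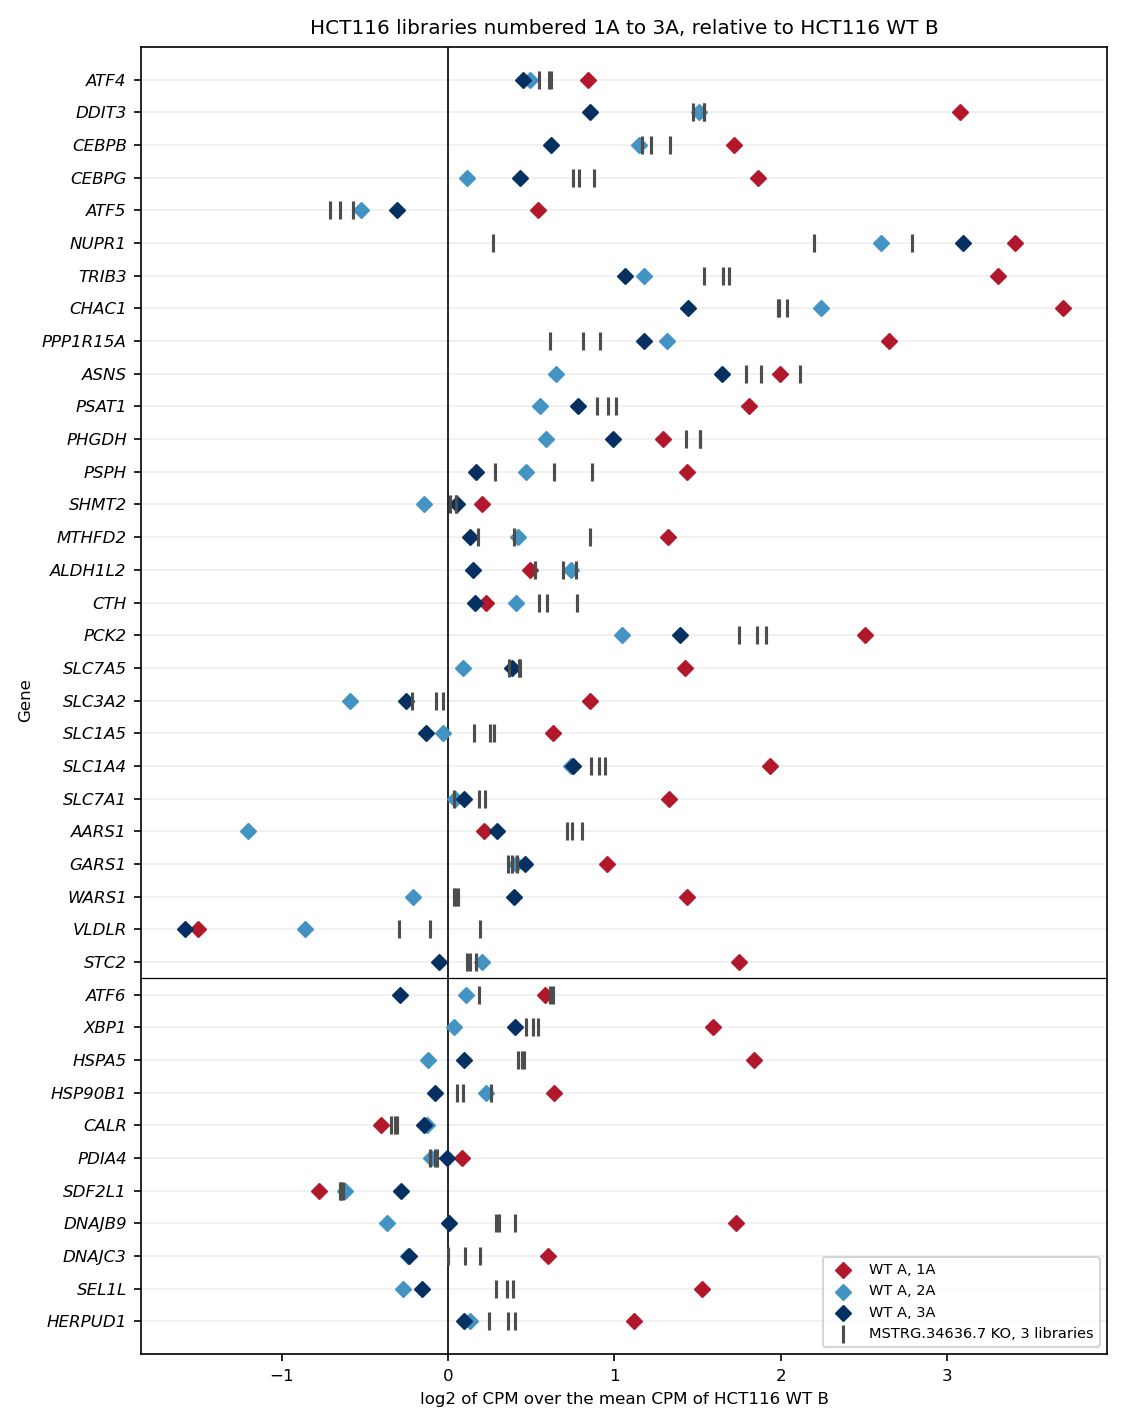
Log2 of the CPM of 39 genes over the mean CPM of HCT116 WT B, for the 3 libraries of WT A (diamonds, with 1A in red) and the 3 of MSTRG.34636.7 KO (grey bars). The horizontal line separates ATF4 genes (above) from ER genes (below). Among the WT A libraries, 1A is the highest in 33 of 39 genes (84.6%, against 32.9% of 24497 genes). The KO libraries are above 0 in CHAC1, TRIB3, PCK2 and ASNS.

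In HCT116 MSTRG.34636.7 KO against WT A, 1 of 40 genes was called (2.5%, against 1.34% of 28816 genes tested). This was VLDLR, at 2.47, 3.03 and 2.16 CPM in the KO and at 0.940, 1.47 and 0.890 CPM in WT A (1.22 ± 0.27, adjusted p = 0.0935). The groups did not overlap, but the call was kept in 5 of 16 alternatives, and against WT B, at 3.09, 2.60 and 2.28 CPM, the log2(fold change) was -0.08. It was lost without any of the KO libraries 1A, 2A and 3A and without the WT A libraries 1A and 3A. In the fit of all HCT116 libraries no gene was called (against 0.3% of all genes) and 3 had an unadjusted p below 0.05, while without S8 and S9 in that fit 2 were called (5.0%, against 2.7%), VLDLR higher (adjusted p = 0.00844) and PPP1R15A lower in the KO. Of the further ATF4 targets, ATF3 was called lower in the KO, and no upstream or further ER gene was called.

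The stress-feedback genes of this KO lay within the range of WT A, PPP1R15A excepted. CHAC1 was at 17.2, 17.1 and 17.8 CPM in the KO, between WT A 3A (11.8 CPM) and 2A (20.5 CPM), and DDIT3, at 18, 18 and 17.2 CPM, between 3A (11.2 CPM) and 1A (52.2 CPM). TRIB3 was at 148, 145 and 133 CPM, above 2A and 3A and below 1A. The phosphatase subunit PPP1R15A was at 31.8, 27.7 and 34.0 CPM, below all WT A libraries (-1.10 ± 0.37, adjusted p = 0.225). It passed in the fit of all HCT116 libraries without S8 and S9 (-1.10 ± 0.31, adjusted p = 0.0660). The median over the 40 genes was -0.21 with all WT A libraries and 0.24 without 1A, so that its sign rests on that library. Against WT B, in turn, 7 of 39 genes were called, all higher in the KO, namely DDIT3, CEBPB, TRIB3, CHAC1, ASNS, PHGDH and PCK2 (17.9%, against 14.5% of 27971 genes in that fit), and 26 genes were upregulated (against 23%) and 4 downregulated (against 22.9%). ASNS, at 264, 311 and 249 CPM, was above every WT B library (76.1 CPM at most). The calls for these genes thus differed with the wild type taken as control.

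In HCT116 MSTRG.2513.6 KO against WT B, none of 38 genes was called by edgeR (against 0.933% of 26374 genes tested), 11 had an unadjusted p below 0.05 (28.9%, against 20.7%), and DESeq2 called 4, the same share to 3 digits as of all genes. The group was not uniform. Of the 9 genes called between the wild-type lines, all 9 were nearer to A549 WT B than to HCT116 WT B in S8 and in S9, and 2 in S11. Over all 40 genes, 25 were nearer to A549 WT B in S8, 27 in S9 and 14 in S11. The 9 genes were picked because the lines differ in them, and the same count over all genes was not made. These counts are therefore not read as a result about the 40 genes. VLDLR was at 41.4 CPM in S8, 42.0 CPM in S9 and 1.35 CPM in S11, SLC7A5 at 3251, 3039.8 and 442 CPM, and DNAJC3 at 15.6, 9.81 and 69.2 CPM. NUPR1 was at 10.4 and 10.2 CPM in S8 and S9 and at 0 counts in S11, where 3 counts correspond to 0.0825 CPM. S8 and S9 thus lay at A549 levels in these genes. STC2, at 73.5 CPM in S8 and 77.0 CPM in S9, stood nearer to A549 MSTRG.2513.6 KO (75.5 to 81.0 CPM) than to A549 WT B (28.1 to 32.7 CPM). HCT116 WT B was at 59.6 to 63.5 CPM, and in STC2 both libraries were nearer to it than to A549 WT B.

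SLC7A1 was the gene downregulated with all 3 libraries, at 106, 131 and 160.2 CPM in S8, S9 and S11 against 238 to 269 CPM in WT B (-0.77 ± 0.13, adjusted p = 0.0952). Without S11, 10 genes were called (25.6%, against 37.2% of all genes). Without S8 and S9, S11 stood alone against WT B and was assumed to vary like WT B. In that fit, 4 genes were called (10.3%, against 8.69% of all genes), ALDH1L2 higher and ATF5, SLC7A5 and VLDLR lower, at 14.6, 5.34, 442 and 1.35 CPM in S11, 28 had an unadjusted p below 0.05 (71.8%, against 34.0%), and SLC7A1 was at -0.75 (adjusted p = 0.00397). With all HCT116 libraries but S8 and S9 in the fit, 3 were called (7.5%, against 6.17%), and SLC7A1 did not pass (-0.79 ± 0.39, adjusted p = 0.262). The levels of this group are therefore given by library, and no value of it is read as an effect of the KO.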

How the data were processed

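RNA-seq was performed on 24 libraries in 8 groups of 3. Per the labels and the study's methods, total RNA was depleted of rRNA, made into stranded libraries and sequenced on a NovaSeq6000, and the reads were trimmed and checked (Trim Galore 0.6.6, FastQC 0.11.9), aligned to hg38 (HISAT2 2.2.1) and quantified (StringTie), versions as in the submitters' processing notes. The authors deposited whole-number counts per gene symbol for each library, which are not normalized. The annotation and the use of strand in counting are not given in the sources used here, so genes with near-identical copies, such as the pseudogenes of SLC7A5, PSPH, HSP90B1 and ATF4, are uncertain.

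The 3 symbols not listed in every library were left out. Counts were tested with edgeR 4.0.16 (R 4.3.3; TMM, filterByExpr, quasi-likelihood test, Benjamini-Hochberg over all genes tested), with only the groups compared in each fit. Calls needed FDR below 0.1 and an absolute log2(fold change) above 1, as in the study's methods. The interaction was fitted on 4 groups. Alternatives were DESeq2 1.42.0, upper-quartile normalization, other filters (none, or at least 10 counts in every library), FDR below 0.05, no fold threshold, fits of all libraries of a cell line (for HCT116 also without S8 and S9), the other HCT116 wild type, a replicate block and leaving out each library. The fits were tested on simulated data. Exon lengths and promoter annotation are from GENCODE release 44, promoter sequences from RefSeq (GRCh38.p14).

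The genes and the further lists were chosen with earlier results of these data known. Values per library are given for genes called in at least 1 comparison and for ATF4, DDIT3, ASNS, TRIB3, CHAC1, XBP1 and HSPA5, which define the branches. Library values of other genes (CALR, PDIA4, HSP90B1, PHGDH, SLC7A1, AARS1 and ATF5) were added after their values were seen. Counting error is small at these depths (3 counts are 0.0293 to 0.116 CPM), and floors cover counting error only.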

Additional observations from a re-analysis of the deposited data

Results flagged for a closer look

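PCK2, the mitochondrial PEPCK, differed between the cell lines in its response to MSTRG.4401.1 KO, by a test of the difference itself. The log2(fold change) in A549 minus that in HCT116 was 1.02 ± 0.17 (edgeR, adjusted p = 0.00192). The KO libraries were above wild type in A549 and below it in HCT116, without overlap in either. The difference kept FDR below 0.1 in 16 of 16 other fits, and lay between 0.83 and 1.16, while the 2-fold threshold was missed in 6 of 18 alternatives. None of these fits took WT A as the HCT116 control.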

How the results depend on the processing

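Of the 28 called values, 15 kept their call under every alternative run, and over 368 pairs of value and alternative, 319 kept the call, 48 lost it with the same direction and 1 reversed (VLDLR in MSTRG.34636.7 KO, at -0.083 against WT B). Causes were not tested. The numbers below count called genes. They show how far the counts moved, and where no share over all genes stands beside them they are not results about these genes. With no fold threshold they became 7 (A549 MSTRG.2513.6 KO), 22 (A549 MSTRG.4401.1 KO), 10 (HCT116 MSTRG.4401.1 KO), 1 (HCT116 MSTRG.2513.6 KO), 30 (wild-type lines), 24 (A549 KOs against each other) and 15 (interaction). At FDR below 0.05 they became 1 for A549 MSTRG.2513.6 KO, 0 for MSTRG.34636.7 KO and 7 for WT A against WT B. DESeq2 called 2 in A549 MSTRG.4401.1 KO, 2 in MSTRG.34636.7 KO and 4 in HCT116 MSTRG.2513.6 KO. With no filter, 1 was called in A549 MSTRG.2513.6 KO, 3 in A549 MSTRG.4401.1 KO, 0 in MSTRG.34636.7 KO and 2 in the interaction. Upper-quartile normalization gave 0 for MSTRG.34636.7 KO and 1 for HCT116 MSTRG.2513.6 KO, for which a minimum of 10 counts gave 2, a fit of all HCT116 libraries 8 and leaving out S8 and S9 together 4. The fit of all HCT116 libraries gave 0 for MSTRG.34636.7 KO, and 0 of the 9 genes lower at FDR alone in MSTRG.4401.1 KO. Without S8 and S9, that fit gave 2 for MSTRG.34636.7 KO, 3 for HCT116 MSTRG.2513.6 KO and 0 lower in MSTRG.4401.1 KO (chosen after seeing the data). The other HCT116 wild type gave 14 called and 17 lower for MSTRG.4401.1 KO, 7 for MSTRG.34636.7 KO and 17 for the wild-type lines, the last chosen after seeing the data.

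With single libraries left out, the counts ran from 1 to 2 (A549 MSTRG.2513.6 KO), 1 to 5 (A549 MSTRG.4401.1 KO, with 11 to 19 lower at FDR alone), 0 to 0 (HCT116 MSTRG.4401.1 KO, with 7 to 11 lower), 0 to 1 (MSTRG.34636.7 KO), 0 to 10 (HCT116 MSTRG.2513.6 KO), 5 to 16 (WT A against WT B), 9 to 10 (wild-type lines), 3 to 5 (A549 KOs against each other, with 17 to 25 lower) and 0 to 4 (interaction). Replicate numbers are shared by MSTRG.34636.7 KO and WT A and by the B wild types. Deviations of same-numbered libraries from their group means had r of 0.0057, 0.020 and 0.054 in the former and -0.19, -0.013 and -0.020 in the latter, so the numbers were not taken as pairs. With the replicate block, 0 genes were called in MSTRG.34636.7 KO. For low genes such as FGF21 and NUPR1 in HCT116, depth limits what can be seen.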
